A study of Homo sapiens with 9 samples.

Results

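The shGLO1#1 clone of MDA-MB-231 cells was compared with the control clone shNT. MDA-MB-231 is an established triple-negative breast cancer line, and shGLO1#1 is 1 of 2 of its stable clones that carry a short hairpin RNA against GLO1. The control shNT carries a non-targeting hairpin. The libraries were chosen by their labels, and they were 6 of the 9 in the study, 3 of shGLO1#1 and 3 of shNT. The other 3, of the clone shGLO1#2, served to show where shGLO1#1 differed from a second GLO1-depleted clone. No treatment separated the groups other than the hairpin. Each condition is a single clonal line, so a difference between clones cannot be told apart from a difference made by the hairpin, and p-values measured the spread between libraries of a line.

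GLO1 encodes glyoxalase 1, which with reduced glutathione removes methylglyoxal (MG), a reactive by-product of glycolysis. Several gene programmes described below have well-known regulators. Cholesterol is made from acetyl-CoA through mevalonate, squalene and lanosterol, and most enzymes of the route are transcribed under SREBP-2, a membrane-bound factor released when sterols run low. The factor ATF4 drives amino acid and stress genes, and interferons act through STAT proteins on antiviral and antigen presentation genes. DUSP proteins are phosphatases that switch off MAP kinases.

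Levels are given in CPM, counts scaled to the library size after TMM normalization, and comparisons of levels are made within a gene only. All p-values come from edgeR's quasi-likelihood test with Benjamini-Hochberg adjustment over the 13704 genes tested of 26364 listed, and each log2 fold change is given ± its standard error (SE). Genes past both an adjusted p of 0.05 and a 2-fold change are said to be called. For gene lists the adjusted p alone was used, since most of their changes were smaller. At that threshold 22.6% of all genes were higher and 23.1% lower in shGLO1#1 than in shNT, the shares against which list counts are read. GLO1 itself, the targeted gene, was at 323, 312 and 317 CPM in shNT, 64.2, 65.9 and 65.9 in shGLO1#1 and 14.6, 15.5 and 14.02 in shGLO1#2. The groups did not overlap, and shGLO1#1 kept an intermediate level, with a log2 fold change of -2.28 ± 0.05 (adjusted p = 7.6e-12) against shNT and 2.15 ± 0.06 (adjusted p = 1.24e-10) against shGLO1#2.

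The 9 libraries held 15314238 to 18495576 counts on genes, and the first 2 principal components, with 46.55% and 35.94% of the variance, separated the 3 lines. Alignments on no gene made up 12.8 to 13.3% in shNT and 14.5 to 15.2% in shGLO1#1, and TMM factors were 0.972 to 0.986 in shNT and 1.02 to 1.04 in shGLO1#1. Neither range overlapped between the groups, and their part in the results was not tested. Of the 10 markers fixed for MDA-MB-231, all were tested, with a summed level of 8204 to 8910 CPM in shNT and 8049 to 8847 in shGLO1#1. SPARC, one of them, had only 5 counts over the shNT libraries and 40 over those of shGLO1#1. Of the 10 fibroblast markers 3 had enough counts, with summed levels of 14.1 to 22.1 CPM in shNT and 13.6 to 15.7 in shGLO1#1. Of those 2 fell, LUM beyond 2-fold, with 230 counts over the shNT libraries and 47 over those of shGLO1#1. The 3 leukocyte markers tested summed to 124.8 to 129.8 CPM in shNT and 141.9 to 153.7 in shGLO1#1, nearly all from the lysosomal gene CD68, with MS4A1 at 0 in every library. PTPRC, the pan-leukocyte phosphatase CD45, was at 9.34, 6.26 and 9.52 CPM in shNT, 0.926, 0.925 and 1.77 in shGLO1#1 and 2.31, 2.18 and 3.23 in shGLO1#2 (log2 fold change -2.79 ± 0.26, adjusted p = 1.97e-06). The 5 endothelial markers tested summed to 5.98 to 7.96 CPM in shNT and 6.73 to 8.81 in shGLO1#1, and CDH5 and EMCN had 0 counts in both lines. Within that sum PECAM1 rose (1.66 ± 0.35, adjusted p = 0.00156) and FLT1 fell (-2.35 ± 0.42, adjusted p = 0.000458). The 7 luminal markers tested summed to 1507 to 1809 CPM in shNT and 1392 to 1664 in shGLO1#1, and 2 of them rose beyond 2-fold, among them TFF1 (1.60 ± 0.39, adjusted p = 0.00458). The part of these markers in the results was not tested.

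In shGLO1#1 820 genes were called higher than in shNT, 5.98% of the genes tested, and 377 were called lower, 2.75%. At an adjusted p under 0.05 alone 3101 genes were higher (22.6%) and 3166 lower (23.1%), so that the excess of higher over lower genes held only beyond 2-fold. It also held mainly at low levels. There a gene could pass the count filter through the line where it was high, so the shares by level are descriptions. Among the 1001 genes with a mean below 1 CPM, 21.8% were called higher and 6.29% lower, and among the 3147 genes from 1 to 10 CPM these shares were 13.7% and 5.59%. From 10 to 100 CPM they were 2.15% and 1.58% of 7109 genes. Among the 2375 genes from 100 to 1000 CPM the order turned, with 0.716% called higher and 1.05% lower, and 970 lower against 419 higher at the adjusted p alone. Against shGLO1#2, 514 genes were called higher in shGLO1#1 (3.75%) and 457 lower (3.33%), and at the adjusted p alone 3243 were higher (23.7%) and 3126 lower (22.8%).

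**Figure D1:**
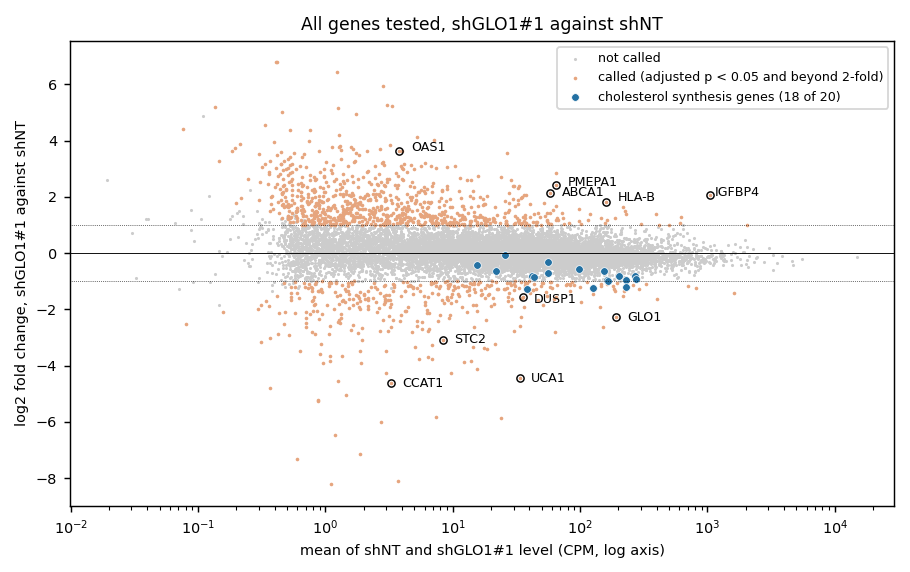
Log2 fold change of shGLO1#1 against shNT (vertical axis) against the mean level of the 2 groups in CPM (horizontal log axis) for the 13704 genes tested, with called genes in orange and 18 of the cholesterol synthesis genes in blue. Orange points above 0 crowd at low levels, where 21.8% of the genes below 1 CPM were called higher, and the blue points lie below 0. Genes of low level could pass the count filter through the line where they were high.

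Cholesterol synthesis genes were lower in shGLO1#1 nearly without exception. Of the 20 members of the list, all tested, 19 fell at an adjusted p under 0.05, where 23.1% of all genes did, and 0 rose. Their median log2 fold change was -0.84, and 5 of them fell by more than 2-fold. In shGLO1#2 the median of the same list was 0.05 against shNT, and between the clones 18 of the 20 were lower in shGLO1#1, where 22.8% of all genes were. The summed level of the 20 genes was 3938 to 4112 CPM in shNT, 1955 to 2224 in shGLO1#1 and 3589 to 3895 in shGLO1#2.

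The promoters of MVD and MSMO1 are shown because these genes had the largest falls of the list among those with a promoter printed here. They are given as the 250 bases before the RefSeq start site in GRCh38.p14, 5′ to 3′ on the strand of the gene, with capitals for the CCAAT box, a motif bound by the factor NF-Y. MVD lies on the minus strand (chr16:88663092-88663341) and MSMO1 on the plus strand (chr4:165327419-165327668).
MVD: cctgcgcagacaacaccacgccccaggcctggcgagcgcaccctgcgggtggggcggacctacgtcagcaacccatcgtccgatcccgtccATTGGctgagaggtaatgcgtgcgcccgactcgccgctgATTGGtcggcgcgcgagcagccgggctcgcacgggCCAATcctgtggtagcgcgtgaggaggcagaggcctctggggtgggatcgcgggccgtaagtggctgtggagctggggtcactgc
MSMO1: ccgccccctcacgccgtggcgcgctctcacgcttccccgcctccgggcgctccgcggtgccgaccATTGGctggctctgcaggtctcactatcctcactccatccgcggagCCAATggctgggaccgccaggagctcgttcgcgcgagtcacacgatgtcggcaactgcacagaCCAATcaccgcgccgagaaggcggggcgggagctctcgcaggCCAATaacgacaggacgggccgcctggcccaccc
MVD holds the letters CCAAT, read on either strand, at -159, -120 and -85 from the start, and MSMO1 at -185, -139, -76 and -34. Over longer windows, which also hold the first 50 bases of the transcript, CCAAT was in 12 of the 15 promoters of the list that had an entry, 80.0%, and in 34.6% of all 35116 promoters. One spelling of the sterol regulatory element, TCACNCCAC on either strand, was in 0 of the 15 and in 1.13% of all promoters. A match is a description of the letters, and the motifs were chosen with the results known.

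Along the route, the first steps to mevalonate fell together. ACAT2, which joins 2 acetyl-CoA, was at 165, 184 and 179.8 CPM in shNT, 78.1, 67.9 and 78.5 in shGLO1#1 and 151, 169 and 173 in shGLO1#2. Both other lines lay above every shGLO1#1 library, and the log2 fold change was -1.24 ± 0.07 (adjusted p = 4.51e-08). HMGCS1, the HMG-CoA synthase, was at 172, 221 and 252 CPM in shNT, 121, 86.1 and 124 in shGLO1#1 and 236, 256 and 321 in shGLO1#2, again with every shGLO1#1 library below the others, at -0.96 ± 0.15 (adjusted p = 0.000185).

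MVK and MVD phosphorylate and decarboxylate mevalonate. MVD showed the largest fall of the list, at 57.6, 59.4 and 46.3 CPM in shNT, 26.4, 20.6 and 19.8 in shGLO1#1 and 64.6, 59.0 and 62.0 in shGLO1#2. Every shGLO1#1 library was at or below 26.4 CPM and no library of the other lines was under 46.3, and the log2 fold change was -1.29 ± 0.11 (adjusted p = 1.09e-06). MVK fell by 0.81 on the log2 scale. PMVK, the kinase between them, was the only member that did not pass, with 25.6, 29.6 and 23.9 CPM in shNT, 23.9, 26.3 and 24.6 in shGLO1#1 and 25.5, 27.0 and 25.7 in shGLO1#2 and a log2 fold change of -0.08 ± 0.09 (adjusted p = 0.514). The isoprenoid enzymes IDI1 and FDPS had log2 fold changes of -0.80 ± 0.08 (adjusted p = 3.75e-06) and -0.83 ± 0.06 (adjusted p = 1.62e-07).

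The committed sterol steps followed. FDFT1, squalene synthase, was at 297, 306 and 293 CPM in shNT, 167, 147 and 154 in shGLO1#1 and 349, 319 and 334 in shGLO1#2, and SQLE, squalene epoxidase, at 51.9, 58.3 and 57.4 CPM in shNT, 33.4, 28.7 and 30.8 in shGLO1#1 and 68.0, 67.2 and 77.9 in shGLO1#2. For both, the shGLO1#2 libraries were the highest and the shGLO1#1 libraries the lowest, with no overlap of shGLO1#1 with either line. Their log2 fold changes in shGLO1#1 were -0.94 ± 0.06 (adjusted p = 5.76e-08) and -0.85 ± 0.08 (adjusted p = 2.28e-06), and in shGLO1#2 0.16 ± 0.06 (adjusted p = 0.0373) and 0.34 ± 0.08 (adjusted p = 0.00313). LSS, which closes the ring to lanosterol, changed by -0.62 ± 0.06 (adjusted p = 1.59e-06). CYP51A1, lanosterol demethylase, was at 340.2, 362 and 372 CPM in shNT, 205, 175 and 188 in shGLO1#1 and 194, 239.9 and 232 in shGLO1#2 and was lower in both clones, at -0.92 ± 0.08 (adjusted p = 8.46e-07) and -0.69 ± 0.08 (adjusted p = 1.31e-05).

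After lanosterol, MSMO1, the methylsterol oxidase, was at 308, 319 and 330.2 CPM in shNT, 159, 122 and 135 in shGLO1#1 and 292, 297 and 315 in shGLO1#2. Its shGLO1#1 libraries held under 160 CPM and the others over 290, a log2 fold change of -1.204 ± 0.08 (adjusted p = 9.78e-08). The smallest falls that passed were those of NSDHL, at -0.33 ± 0.07 (adjusted p = 0.00238), and TM7SF2, at -0.41 ± 0.10 (adjusted p = 0.00339). EBP, SC5D and HSD17B7 changed by -0.69, -0.57 and -0.64. DHCR7, the last reductase of one branch, was at 222, 240.4 and 205 CPM in shNT, 123, 104 and 107 in shGLO1#1 and 230.1, 219 and 230.5 in shGLO1#2 (-0.9999 ± 0.07, adjusted p = 1.87e-07).

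**Figure D2:**
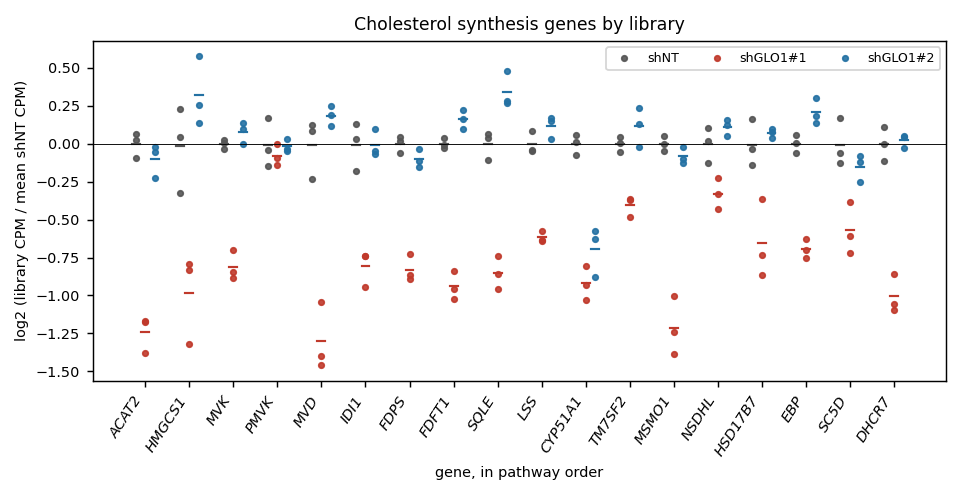
Level of 18 of the 20 cholesterol synthesis genes in each library as log2 of its CPM over the mean shNT CPM, with genes in pathway order, 1 point per library and a bar at the mean of each line. The shGLO1#1 points lie below the shNT points except for PMVK, and for CYP51A1 the shGLO1#2 points lie below as well.

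Regulators of sterol synthesis moved less, and in both directions. Of 14 genes tested in the list of SREBP regulators and sterol uptake 4 rose and 5 fell, with a median log2 fold change of 0.06. These shares were 28.6% and 35.7%, against 22.6% and 23.1% of all genes. SREBF2, the gene of SREBP-2, was at 307, 287 and 282 CPM in shNT, 214, 215 and 213 in shGLO1#1 and 284, 253 and 278 in shGLO1#2. Its shGLO1#1 libraries were the lowest and did not overlap the others (-0.45 ± 0.06, adjusted p = 2.22e-05). SREBF1, which encodes the SREBP-1 proteins of fatty acid synthesis, rose by 0.30 ± 0.09 (adjusted p = 0.0153), and this was lost without shGLO1#1 replicate 3 (adjusted p = 0.0823). INSIG1, an SREBP inhibitor and SREBP target, was at 211, 265 and 280.2 CPM in shNT, 261, 236 and 274 in shGLO1#1 and 330.4, 367 and 386 in shGLO1#2 (0.03 ± 0.09, adjusted p = 0.837). The sterol carrier STARD4 changed by -0.43 ± 0.07 (adjusted p = 0.000276). NPC1, which exports cholesterol from lysosomes, was lower in both clones, at -0.73 ± 0.05 (adjusted p = 6.46e-08) and -0.79 ± 0.05 (adjusted p = 4.13e-08), with a difference between them of 0.06 ± 0.05 (adjusted p = 0.291). LPIN1 rose in both, by 0.58 and 0.48.

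Fatty acid genes fell as well. Of 15 tested, 11 were lower and 2 higher (73.3% and 13.3%, against 23.1% and 22.6% of all genes). The median was -0.33 in shGLO1#1 and 0.05 in shGLO1#2. FASN, fatty acid synthase, was at 978, 1087 and 848 CPM in shNT, 634, 591 and 613 in shGLO1#1 and 1197, 985 and 1043 in shGLO1#2. No shGLO1#1 library reached the lowest of the other lines, and the log2 fold change was -0.66 ± 0.09 (adjusted p = 3.13e-05). ACSS2, which makes acetyl-CoA from acetate, and the desaturase family member FADS3 changed by -0.84 ± 0.11 (adjusted p = 3.98e-05) and -1.27 ± 0.10 (adjusted p = 2.91e-07). The delta-9 desaturase SCD did not pass (-0.12 ± 0.06, adjusted p = 0.145), while its relative SCD5 rose, from 20.6, 24.3 and 22.3 CPM in shNT to 48.9, 47.9 and 44.3 in shGLO1#1 (1.07 ± 0.09, adjusted p = 5.25e-07). ACACB also rose, by 0.75 ± 0.14 (adjusted p = 0.000578). Both rose in shGLO1#2 as well, SCD5 by 0.83 and ACACB by 0.49.

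Among 9 LXR targets and sterol efflux genes 4 rose and 1 fell (44.4% and 11.1%, against 22.6% and 23.1% of all genes). Their median was 0.67. ABCA1, the pump that loads cholesterol onto apolipoprotein A1, was at 14.4, 21.2 and 28.1 CPM in shNT, 74.0, 91.6 and 119 in shGLO1#1 and 18.4, 23.8 and 27.9 in shGLO1#2. The lowest shGLO1#1 library held 74.0 CPM and the highest of the other lines 28.1, a log2 fold change of 2.15 ± 0.21 (adjusted p = 2.94e-06) against shNT and 2.02 ± 0.21 (adjusted p = 4.48e-06) against shGLO1#2. SMPDL3A, a phosphodiesterase, rose by 0.70 ± 0.12 (adjusted p = 0.00027) in shGLO1#1 and was lower in shGLO1#2, at -0.44 ± 0.13 (adjusted p = 0.0133). CYP27A1 and CH25H, a pair of sterol hydroxylases, rose by 1.06 ± 0.23 (adjusted p = 0.00194) and 1.91 ± 0.36 (adjusted p = 0.000748), from means of few counts. CH25H also rose in shGLO1#2, by 2.23 ± 0.35. Neither gene passed between the clones (adjusted p = 0.119 for CYP27A1 and 0.353 for CH25H). The 2-fold call of CYP27A1 was lost under some alternatives.

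DUSP1, the phosphatase MKP-1 that inactivates p38, JNK and ERK, was at 55.6, 57.2 and 46.2 CPM in shNT, 18.1, 18.4 and 17.2 in shGLO1#1 and 49.8, 51.0 and 43.9 in shGLO1#2. The shGLO1#1 libraries lay together and far below both other lines, which overlapped. The log2 fold change was -1.56 ± 0.09 (adjusted p = 4.91e-08) in shGLO1#1 and -0.13 ± 0.09 (adjusted p = 0.253) in shGLO1#2, and the difference between the clones was -1.43 ± 0.09 (adjusted p = 1.03e-07). Of the 8 DUSP genes tested 4 fell and 3 rose (50% and 37.5%, against 23.1% and 22.6% of all genes). DUSP10, specific for p38 and JNK, was at 27.4, 26.6 and 29.7 CPM in shNT, 9.75, 11.3 and 9.75 in shGLO1#1 and 17.8, 17.4 and 18.7 in shGLO1#2, with no overlap between any of the lines and -1.44 ± 0.09 (adjusted p = 8.9e-08) in shGLO1#1. DUSP8, of the same specificity, fell in both clones, by 1.96 and 1.55 on the log2 scale. DUSP5, a nuclear ERK phosphatase, was at 269, 243 and 211 CPM in shNT, 149, 124 and 110.0 in shGLO1#1 and 171, 162 and 157 in shGLO1#2 (-0.91 ± 0.10, adjusted p = 8.5e-06).

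The ERK phosphatases DUSP4, DUSP6 and DUSP7 passed on the higher side, and of these only DUSP4 did so under every alternative. DUSP4 was at 482, 399 and 432 CPM in shNT, 733, 669 and 635 in shGLO1#1 and 699, 531 and 594 in shGLO1#2, above every shNT library in both clones (0.63 ± 0.09, adjusted p = 9.71e-05). For DUSP6 and DUSP7 the changes were 0.25 ± 0.10 (adjusted p = 0.047) and 0.23 ± 0.08 (adjusted p = 0.023), and the count of DUSP genes that rose dropped from 3 to 1 without shNT replicate 3 or without shGLO1#1 replicate 2.

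Of 20 ERK output and feedback genes 10 rose and 4 fell (50% and 20%, against 22.6% and 23.1% of all genes). The medians were 0.19 in shGLO1#1 and 0.20 in shGLO1#2. Without shGLO1#1 replicate 1 only 6 rose. SPRY2 and SPRY4 encode Sprouty inhibitors of receptor signalling. SPRY2 was at 77.2, 69.8 and 75.4 CPM in shNT, 131, 131 and 131 in shGLO1#1 and 99.6, 84.4 and 100.5 in shGLO1#2, with the lines apart (0.82 ± 0.07, adjusted p = 7.01e-07), and SPRY4 rose in both clones, by 0.85 and 0.73. The ephrin receptor EPHA4 was at 13.98, 14.2 and 15.9 CPM in shNT, 33.3, 37.5 and 36.4 in shGLO1#1 and 18.3, 16.7 and 17.7 in shGLO1#2, highest in shGLO1#1 (1.28 ± 0.09, adjusted p = 1.25e-07, and 1.03 ± 0.09, adjusted p = 6.08e-07 against shGLO1#2). The small MAF factor MAFF fell by 0.62 on the log2 scale. Among 21 immediate early genes 4 rose and 5 fell, near the share over all genes. They included KLF4 (0.94 ± 0.08, adjusted p = 9.68e-07) and KLF2 (0.73 ± 0.17, adjusted p = 0.00372) on the higher side and CYR61 (-0.79 ± 0.09, adjusted p = 9.62e-06) and FOSB (-0.98 ± 0.22, adjusted p = 0.00236) on the lower. Of 13 EGF receptor family genes and ligands 3 rose and 4 fell (23.1% and 30.8%), near the 22.6% and 23.1% of all genes. The ligand amphiregulin, AREG, was at 9.07, 7.24 and 6.59 CPM in shNT, 3.15, 3.26 and 3.99 in shGLO1#1 and 7.67, 5.81 and 6.83 in shGLO1#2 (-1.13 ± 0.17, adjusted p = 0.000144), low in shGLO1#1, and the receptor ERBB3 was lower in both clones (-0.90 and -1.21). BTC and NRG2, expressed near the detection limit, rose by 2.04 and 1.63.

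ATF4 and unfolded protein response genes were lower in shGLO1#1. Of 19 tested 13 fell (68.4%, against 23.1% of all genes) and 0 rose. The median was -0.55, against -0.03 in shGLO1#2. Between the clones 12 were lower in shGLO1#1 and 3 higher, where 22.8% and 23.7% of all genes were. ATF4 was at 339, 344 and 341 CPM in shNT, 274, 263 and 277 in shGLO1#1 and 384, 370.5 and 384 in shGLO1#2. The order of the lines was the same in every library, with shGLO1#1 lowest and shGLO1#2 highest, and ATF4 changed by -0.33 ± 0.05 (adjusted p = 5.85e-05) in the former and 0.15 ± 0.05 (adjusted p = 0.0159) in the latter. STC2, a secreted glycoprotein hormone, was at 19.6, 12.3 and 13.1 CPM in shNT, 2.04, 1.58 and 1.71 in shGLO1#1 and 21.6, 9.05 and 15.1 in shGLO1#2. All shGLO1#1 libraries were at or below 2.04 CPM and all others at or above 9.05, a log2 fold change of -3.08 ± 0.32 (adjusted p = 5.16e-06). TRIB3, a pseudokinase that restrains ATF4, was at 53.9, 56.2 and 49.0 CPM in shNT, 29.4, 29.8 and 25.7 in shGLO1#1 and 66.5, 65.7 and 61.8 in shGLO1#2 and changed by -0.91 ± 0.08 (adjusted p = 8.73e-07) in shGLO1#1 and 0.29 ± 0.07 (adjusted p = 0.00737) in shGLO1#2. PCK2, the mitochondrial PEP carboxykinase, was at 27.5, 26.4 and 22.3 CPM in shNT, 12.5, 12.5 and 10.04 in shGLO1#1 and 25.9, 26.7 and 23.1 in shGLO1#2 (-1.12 ± 0.11, adjusted p = 3.8e-06), with shNT and shGLO1#2 overlapping and shGLO1#1 apart. CHAC1, which degrades glutathione, and DDIT3, which encodes CHOP, fell in both clones, at -1.13 and -0.86 in shGLO1#1 and -0.70 and -0.31 in shGLO1#2 (log2 fold changes). The chaperone HSPA5 (BiP), the standard marker of the unfolded protein response, changed by -0.30 ± 0.09 (adjusted p = 0.0163), a call that 2 alternatives lost.

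Of 15 heat shock genes 8 fell (53.3%, against 23.1% of all genes) and 0 rose. HSPB8, a small heat shock protein, was at 44.6, 40.3 and 36.7 CPM in shNT, 13.8, 14.3 and 13.3 in shGLO1#1 and 21.8, 20.3 and 20.6 in shGLO1#2, with no overlap between any of the lines (-1.55 ± 0.09, adjusted p = 3.53e-08). HSPA1A, whose reads can be shared with its near-identical neighbour HSPA1B, changed by -1.16 ± 0.18 (adjusted p = 0.000139). HSF1, the master factor of the heat shock response, changed by -0.39 ± 0.07 (adjusted p = 0.000399) in shGLO1#1 and 0.34 ± 0.07 (adjusted p = 0.00135) in shGLO1#2. HSPH1 fell by 0.38 on the log2 scale, a call that was lost without shNT replicate 2 or shGLO1#1 replicate 3.

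NRF2 and glutathione genes fell in 10 of 19 cases and rose in 2 (52.6% and 10.5%, against 23.1% and 22.6% of all genes). The medians were -0.18 in shGLO1#1 and 0.03 in shGLO1#2. NFE2L2, which encodes NRF2, did not pass (0.05 ± 0.05, adjusted p = 0.431). PGD, of the NADPH-producing pentose phosphate pathway, was at 305, 299 and 303 CPM in shNT, 168, 156 and 162 in shGLO1#1 and 295, 291 and 309 in shGLO1#2. All shGLO1#1 libraries were below 170 CPM and all others above 290, and the log2 fold change was -0.90 ± 0.05 (adjusted p = 3.12e-08). SLC7A11, the cystine carrier, TXNRD1, thioredoxin reductase, and OSGIN1 changed by -0.64 ± 0.12 (adjusted p = 0.000646), -0.51 ± 0.07 (adjusted p = 5.58e-05) and -0.70 ± 0.12 (adjusted p = 0.000451). HMOX1, haem oxygenase, rose slightly (0.36 ± 0.10, adjusted p = 0.00923).

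Interferon-stimulated genes were higher. Of 34 tested 26 rose, 10 of them by more than 2-fold, and 2 fell (76.5% and 5.88%, against 22.6% and 23.1% of all genes). The median was 0.76 in shGLO1#1 and 0.62 in shGLO1#2. Between the clones 12 were higher and 8 lower in shGLO1#1, where 23.7% and 22.8% of all genes were. The promoters of IFI44L and OAS3 are shown as examples of members that rose and hold 1 spelling of the core of the interferon-stimulated response element, GAAANNGAA, in capitals. They are the 250 bases before the RefSeq start in GRCh38.p14 on the plus strand, at chr1:78620198-78620447 and chr12:112938224-112938473.
IFI44L: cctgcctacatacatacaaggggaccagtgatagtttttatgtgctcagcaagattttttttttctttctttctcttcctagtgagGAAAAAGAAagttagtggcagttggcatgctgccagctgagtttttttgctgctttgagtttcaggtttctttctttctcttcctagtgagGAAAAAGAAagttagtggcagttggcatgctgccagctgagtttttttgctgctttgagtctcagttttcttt
OAS3: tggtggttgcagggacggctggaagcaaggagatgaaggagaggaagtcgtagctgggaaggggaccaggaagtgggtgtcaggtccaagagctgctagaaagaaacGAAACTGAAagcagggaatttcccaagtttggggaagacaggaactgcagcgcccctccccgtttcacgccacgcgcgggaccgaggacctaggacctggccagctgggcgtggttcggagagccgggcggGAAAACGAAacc
The matches begin at -164 and -73 in IFI44L and at -143 and -12 in OAS3. Over the longer windows with the first 50 transcribed bases, this spelling, read on either strand, was in 18 of the 24 promoters of the list with an entry (75%) and in 8.11% of all promoters. That count took members whatever their change. OAS1, with the largest rise of the list, held 0 matches to this spelling, and ISG15, which did not pass, held 3. Other spellings and spacings of the element were not searched, so 0 matches does not mean that a promoter lacks it. Whether a match goes with a rise was not tested.

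OAS1, a sensor of double-stranded RNA, was at 0.269, 0.652 and 0.720 CPM in shNT, 6.85, 7.89 and 6.501 in shGLO1#1 and 3.59, 2.57 and 2.79 in shGLO1#2. It was lowest in shNT and highest in shGLO1#1, with no overlap, and the log2 fold change was 3.65 ± 0.26 (adjusted p = 1.68e-07). OAS2, of the same family, was at 10.5, 15.1 and 15.9 CPM in shNT, 60.3, 60.5 and 55.2 in shGLO1#1 and 24.9, 23.8 and 23.5 in shGLO1#2, in the same order of lines (2.08 ± 0.12, adjusted p = 3.14e-08, and 1.29 ± 0.11, adjusted p = 7.54e-07 against shGLO1#2). IFI44 was at 14.4, 13.5 and 15.4 CPM in shNT, 58.8, 60.3 and 62.1 in shGLO1#1 and 36.2, 37.1 and 38.7 in shGLO1#2 (2.06 ± 0.07, adjusted p = 1.29e-09). IFI44L, its neighbour, was at 0.672, 1.4998 and 1.27 CPM in shNT, 6.36, 7.34 and 5.13 in shGLO1#1 and 2.86, 3.35 and 2.48 in shGLO1#2 (2.43 ± 0.25, adjusted p = 3.75e-06). For both, every shGLO1#1 library lay above every library of the other lines.

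OAS3 rose in both clones, by 1.01 and 0.81, and its 2-fold call was lost without shNT replicate 1. OASL, at 9.34, 8.93 and 12.5 CPM in shNT, 41.4, 45.2 and 49.0 in shGLO1#1 and 39.9, 34.1 and 47.0 in shGLO1#2, also rose in both, and shGLO1#1 and shGLO1#2 overlapped. The antiviral GTPase gene MX2 went the other way between the clones, at 0.336, 0.326 and 0.221 CPM in shNT, 1.42, 1.41 and 1.198 in shGLO1#1 and 4.02, 2.51 and 3.60 in shGLO1#2, with a difference of -1.32 ± 0.23 (adjusted p = 0.000353). IFIT2 changed by 1.40 ± 0.17 (adjusted p = 1.53e-05) in shGLO1#1. ISG15, a standard interferon readout, did not pass, at 0.03 ± 0.10 (adjusted p = 0.822).

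MHC class I and peptide loading genes rose in 10 of 15 cases (66.7%, against 22.6% of all genes) and fell in 0. The median was 0.34 in shGLO1#1 and -0.17 in shGLO1#2. Between the clones 13 of the 15 were higher in shGLO1#1 and 1 lower, where 23.7% and 22.8% of all genes were. HLA-B was at 52.1, 81.6 and 78.7 CPM in shNT, 235, 273 and 244 in shGLO1#1 and 90.8, 92.0 and 96.4 in shGLO1#2. Its shGLO1#1 libraries were all above 230 CPM and the others all below 100 (1.82 ± 0.12, adjusted p = 1.24e-07). HLA-C was at 130.4, 139 and 120.0 CPM in shNT, 193, 218 and 191 in shGLO1#1 and 104.8, 100.1 and 106 in shGLO1#2, highest in shGLO1#1 and lowest in shGLO1#2, with changes of 0.63 ± 0.07 (adjusted p = 6.31e-06) and -0.33 ± 0.07 (adjusted p = 0.00186). The light chain B2M was at 485, 509 and 543 CPM in shNT, 782, 782 and 769 in shGLO1#1 and 587, 543 and 591 in shGLO1#2, with no overlap of shGLO1#1 with either line (0.60 ± 0.05, adjusted p = 1.28e-06). The HLA genes share sequence, and reads could have been split among them by the counting. PSMB9, an immunoproteasome subunit, rose by 0.70 ± 0.13 (adjusted p = 0.000487), and the peptide transporter TAP1 did not pass (0.06 ± 0.10, adjusted p = 0.666).

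Of 9 MHC class II genes tested, of 13 listed, 8 rose and 1 fell (88.9% and 11.1%, against 22.6% and 23.1% of all genes). The median was 3.84 in shGLO1#1 and 2.61 in shGLO1#2. Members near 0 in shNT could pass the count filter only through the other lines, so the count is a description. Under the alternatives 6 to 8 rose. CIITA, the class II transactivator, was at 0, 0.587 and 0.609 CPM in shNT, 6.73, 5.603 and 5.70 in shGLO1#1 and 4.32, 4.52 and 4.22 in shGLO1#2 (3.84 ± 0.36, adjusted p = 2.03e-06). HLA-DRA was at 0.0672, 0.326 and 0.111 CPM in shNT, 7.10, 7.18 and 5.08 in shGLO1#1 and 1.83, 2.29 and 1.99 in shGLO1#2, highest in shGLO1#1, with log2 fold changes of 5.22 ± 0.34 (adjusted p = 9.72e-08) and 3.56 ± 0.41 (adjusted p = 1.52e-05) in the 2 clones. HLA-DPA1 changed by 4.94 ± 0.49 (adjusted p = 2.95e-06). HLA-DRB1 had 3 counts over the shNT libraries and 75 over those of shGLO1#1, a ratio of 23.2 with an exact 95% interval of 7.63 to 115, and HLA-DPB1 with 43 counts against 0 was at least 13.3-fold higher. The invariant chain CD74 was at 24.7, 29.7 and 29.9 CPM in shNT, 71.3, 68.1 and 68.1 in shGLO1#1 and 65.0, 68.6 and 75.7 in shGLO1#2 and rose in both clones (1.30 and 1.31). MARCH1, a ligase that removes class II molecules from the surface, was the member that fell, from 16.9, 21.4 and 16.5 CPM in shNT to 0.741, 1.14 and 0.912 in shGLO1#1.

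**Figure D3:**
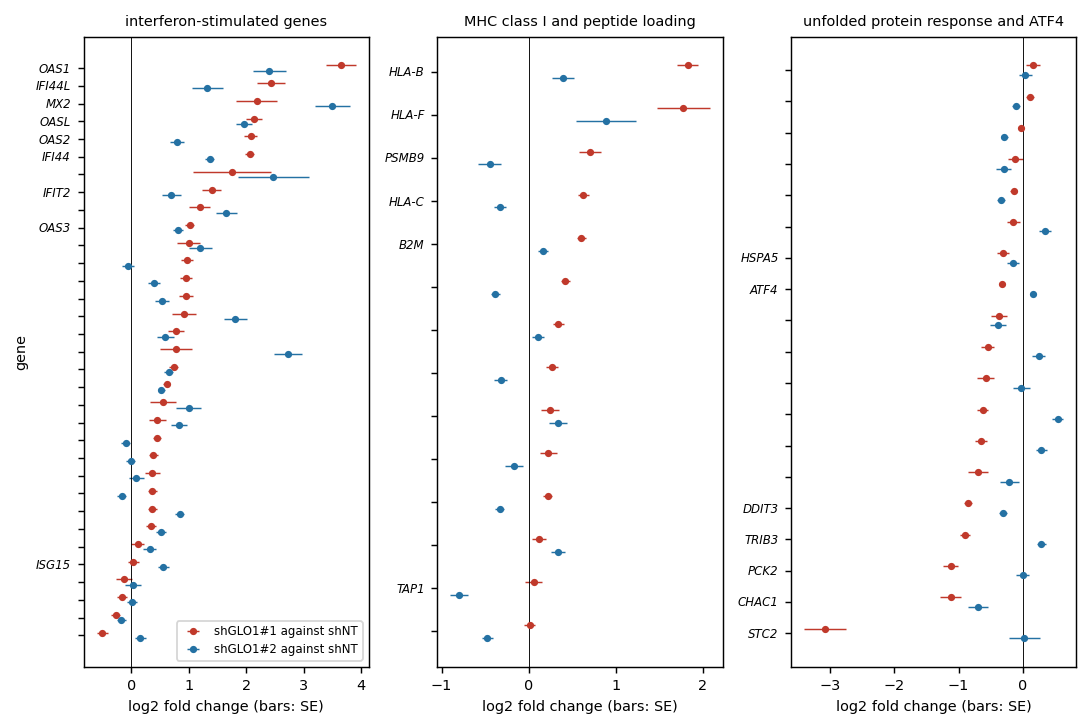
Log2 fold changes against shNT, with their standard errors, of tested genes of 3 lists in shGLO1#1 (red) and shGLO1#2 (blue), ordered by shGLO1#1, with labels on some of the genes. The interferon-stimulated genes lie mostly right of 0 in both clones, and the MHC class I genes do so in shGLO1#1, whose list median was 0.34 against -0.17 in shGLO1#2. Of the unfolded protein response and ATF4 genes 17 of 19 lie left of 0 in shGLO1#1, with STC2 farthest.

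Cytokine genes under NF-kB rose in 3 of 18 cases and fell in 4 (16.7% and 22.2%), near the 22.6% and 23.1% of all genes. Without shGLO1#1 replicate 1 only 1 rose. IL11, a cytokine of the IL-6 family, was at 50.5, 49.7 and 34.0 CPM in shNT, 12.3, 13.7 and 10.6 in shGLO1#1 and 49.5, 56.3 and 43.7 in shGLO1#2. The shGLO1#1 libraries held 10.6 to 13.7 CPM and both other lines overlapped at or above 34 (-1.87 ± 0.15, adjusted p = 6.17e-07). IL24 changed by -2.23 ± 0.39 (adjusted p = 0.00035) in shGLO1#1 and 0.67 ± 0.29 (adjusted p = 0.0863) in shGLO1#2. The adhesion molecule ICAM1 fell in both clones (-1.02 and -1.07), and the macrophage growth factor CSF1 rose by 0.80 ± 0.15 (adjusted p = 0.000651).

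Cell cycle genes were slightly lower. Of 33 tested 19 fell (57.6%, against 23.1% of all genes) and 0 rose. The median was -0.23 in shGLO1#1 and 0.00 in shGLO1#2. Between the clones 23 were lower in shGLO1#1 and 1 higher, where 22.8% and 23.7% of all genes were. MKI67, the proliferation marker Ki-67, was at 933, 959.6 and 1040.2 CPM in shNT, 634, 617 and 636 in shGLO1#1 and 749, 791 and 767 in shGLO1#2, with no overlap between any of the lines (-0.64 ± 0.05, adjusted p = 5.25e-07). The mitotic genes CDC20, PLK1 and CCNB1 changed by -0.47 ± 0.05 (adjusted p = 1.36e-05), -0.46 ± 0.06 (adjusted p = 1.7e-05) and -0.35 ± 0.05 (adjusted p = 0.000114). TOP2A did not pass (0.05 ± 0.07, adjusted p = 0.571). Among 17 CDK inhibitor and p53 target genes 4 rose and 6 fell (23.5% and 35.3%, against 22.6% and 23.1% of all genes). MDM2, the p53 ligase, was at 131, 140.5 and 143 CPM in shNT, 82.0, 76.8 and 81.8 in shGLO1#1 and 126, 134 and 145 in shGLO1#2 (-0.78 ± 0.06, adjusted p = 5.18e-07), and differed between the clones by -0.75 ± 0.06 (adjusted p = 7.34e-07). CDKN1A (p21) did not pass (0.09 ± 0.08, adjusted p = 0.357), GDF15 fell by 1.22 and TP53I3 rose by 1.01 on the log2 scale.

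Oxidative phosphorylation genes fell in 13 of 38 cases and rose in 3 (34.2% and 7.89%, against 23.1% and 22.6% of all genes), with a median of -0.10. A few subunits stood out. SDHB, of complex II, was at 104.95, 104 and 104.9 CPM in shNT, 58.4, 59.4 and 59.0 in shGLO1#1 and 104, 100.1 and 109.7 in shGLO1#2, and COX4I1, of complex IV, at 232, 217 and 218 CPM in shNT, 124, 135 and 134 in shGLO1#1 and 221, 217 and 221 in shGLO1#2. In both genes the shGLO1#1 libraries were tightly grouped and the other lines overlapped, with changes of -0.83 ± 0.05 (adjusted p = 9.01e-08) and -0.77 ± 0.05 (adjusted p = 1.26e-07). CYC1, of complex III, changed by -0.49 ± 0.06 (adjusted p = 3.85e-05) in shGLO1#1 and 0.36 ± 0.06 (adjusted p = 0.000472) in shGLO1#2. NDUFV2, of complex I, fell more in shGLO1#2, by 0.88 against 0.46.

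Glycolysis genes rose in 7 of 21 cases and fell in 4 (33.3% and 19%, against 22.6% and 23.1% of all genes), with a median of -0.01. The transporter SLC2A3 (GLUT3) was at 31.4, 29.0 and 26.0 CPM in shNT, 67.6, 64.5 and 52.7 in shGLO1#1 and 56.9, 47.1 and 46.7 in shGLO1#2 (1.099 ± 0.11, adjusted p = 3.01e-06) and hexokinase HK2 at 196, 185 and 212 CPM in shNT, 259, 279 and 299 in shGLO1#1 and 159, 170.4 and 192 in shGLO1#2 (0.50 ± 0.08, adjusted p = 0.000127). The enzymes ENO1 and PGAM1 of the lower pathway fell, with ENO1 at 4163, 3749 and 3989 CPM in shNT, 2532, 2618 and 2729.6 in shGLO1#1 and 4964, 4407 and 4932 in shGLO1#2 (-0.59 ± 0.06, adjusted p = 3.27e-06). Enolase was lower in shGLO1#1 and higher in shGLO1#2 than in shNT, with 0.27 ± 0.06 (adjusted p = 0.00285) in the latter. Hypoxia response genes rose in 12 of 18 cases (66.7%, against 22.6% of all genes) and fell in 0. The medians were 0.49 in shGLO1#1 and 0.39 in shGLO1#2. The carbonic anhydrase gene CA12 was at 2.75, 4.11 and 4.43 CPM in shNT, 15.4, 13.2 and 12.8 in shGLO1#1 and 17.5, 11.5 and 12.5 in shGLO1#2, and the histone demethylase gene KDM3A rose by 0.81 and 0.83 in the 2 clones. VEGFA rose in shGLO1#1 (0.51 ± 0.09, adjusted p = 0.000305) and did not pass in shGLO1#2 (0.03 ± 0.09, adjusted p = 0.849).

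Other enzymes that act on MG and related aldehydes did not move as a group. Of 16 in the list, GLO1 included, 4 rose and 4 fell, 25% each, near the 22.6% and 23.1% of all genes. The aldehyde dehydrogenase ALDH3A2 rose in both clones, by 0.74 and 0.70. The reductases AKR1C3 and AKR1B10, at low levels, rose by 1.202 ± 0.28 (adjusted p = 0.00324) and 1.68 ± 0.43 (adjusted p = 0.00609). AKR1C3 rose more in shGLO1#2, by 2.35 ± 0.27 (adjusted p = 1.23e-05). AKR1C genes are close paralogs whose reads the counting could split.

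Of 25 matrix proteases, inhibitors and plasminogen genes 14 rose and 3 fell (56% and 12%, against 22.6% and 23.1% of all genes), with a median of 0.49. In shGLO1#2 13 rose and 1 fell. Between the clones 10 were higher in shGLO1#1 and 5 lower, where 23.7% and 22.8% of all genes were, with a median difference of 0.06. MMP14, a membrane-bound collagenase, was at 340.1, 328 and 321 CPM in shNT, 662, 694 and 633 in shGLO1#1 and 482, 446 and 401 in shGLO1#2, with shGLO1#1 highest and no overlap (1.01 ± 0.07, adjusted p = 8.9e-08), and its 2-fold call was lost under 2 alternatives. The inhibitor TIMP1 and urokinase, PLAU, rose by 0.88 ± 0.06 (adjusted p = 2.01e-07) and 0.85 ± 0.05 (adjusted p = 4.84e-08). ADAM19 was at 35.2, 43.1 and 38.1 CPM in shNT, 108, 113 and 94.6 in shGLO1#1 and 58.0, 48.9 and 43.7 in shGLO1#2 (1.44 ± 0.10, adjusted p = 1.93e-07, and 1.07 ± 0.10, adjusted p = 2.13e-06 against shGLO1#2). MMP15 and MMP24 fell, at -1.53 ± 0.19 (adjusted p = 2.7e-05) and -1.52 ± 0.26 (adjusted p = 0.000319).

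Of 22 collagens 12 rose and 5 fell (54.5% and 22.7%, against 22.6% and 23.1% of all genes). Between the clones 4 were higher and 9 lower in shGLO1#1, where 23.7% and 22.8% of all genes were. COL6A3 was at 2.75, 5.22 and 4.43 CPM in shNT, 43.3, 56.0 and 49.3 in shGLO1#1 and 12.7, 8.21 and 8.19 in shGLO1#2, with every line apart (3.57 ± 0.20, adjusted p = 3.12e-08). COL6A1 rose in both clones (2.59 and 2.72), COL6A2 rose more in shGLO1#2 (3.62 and 4.84), and the basement membrane chains COL4A3 and COL4A4 fell by 3.77 and 3.22 on the log2 scale. FN1, fibronectin, was at 205, 243 and 196 CPM in shNT, 641, 558 and 509 in shGLO1#1 and 307, 344 and 292 in shGLO1#2, again with no overlap (1.41 ± 0.10, adjusted p = 1.25e-07). ITGA2, the collagen-binding integrin alpha 2, was at 347, 349.6 and 377 CPM in shNT, 916, 887 and 847 in shGLO1#1 and 537, 455 and 433 in shGLO1#2 (1.30 ± 0.07, adjusted p = 3.14e-08). IGFBP4, a secreted binder of insulin-like growth factors, was at 407, 400.5 and 396 CPM in shNT, 1632, 1759.8 and 1680.2 in shGLO1#1 and 1237, 757 and 906 in shGLO1#2, also apart in every library (2.08 ± 0.13, adjusted p = 5.79e-08).

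Of 28 TGF-beta and BMP genes 8 rose and 8 fell, 28.6% each, near the 22.6% and 23.1% of all genes. FST, follistatin, was at 150.0, 153 and 167 CPM in shNT, 35.8, 41.0 and 63.5 in shGLO1#1 and 70.3, 84.9 and 114 in shGLO1#2 (-1.74 ± 0.19, adjusted p = 5.93e-06), and TGFBI rose in both clones (1.42 and 1.0999). The co-receptor TGFBR3 and the ligand BMP2 fell by 1.09 and 1.09 on the log2 scale. YAP and TEAD targets fell in 7 of 18 cases and rose in 6 (38.9% and 33.3%, against 23.1% and 22.6% of all genes). ANKRD1 and tissue factor, F3, fell in both clones, at -1.41 and -1.24 in shGLO1#1 and -1.01 and -1.13 in shGLO1#2 as log2 fold changes, whereas CTGF rose (0.46 ± 0.11, adjusted p = 0.00402). Cytoskeletal genes fell in 10 of 24 cases and rose in 4 (41.7% and 16.7%, against 23.1% and 22.6% of all genes). Beta-actin, ACTB, was at 5740.4, 5448 and 5109.5 CPM in shNT, 3911, 4174 and 3996 in shGLO1#1 and 4592, 4909 and 4609 in shGLO1#2 (-0.43 ± 0.05, adjusted p = 2.56e-05), filamin C, FLNC, changed by -0.87 ± 0.09 (adjusted p = 6.18e-06), and CAV2 rose by 0.74 ± 0.12 (adjusted p = 0.000264). Of 16 genes of epithelial and mesenchymal identity 4 rose and 6 fell (25% and 37.5%, against 22.6% and 23.1% of all genes). Vimentin, VIM, did not pass (-0.08 ± 0.07, adjusted p = 0.371). CDH1, E-cadherin, fell in both clones, at -3.85 ± 0.26 (adjusted p = 1.29e-07) and -5.64 ± 0.33 (adjusted p = 4.25e-08). The mesenchymal cadherin CDH2 fell in both as well, at -2.43 ± 0.30 (adjusted p = 1.94e-05) and -2.96 ± 0.32 (adjusted p = 7.91e-06), and ESRP2, an epithelial splicing factor, was at 35.9, 29.0 and 29.1 CPM in shNT, 8.70, 11.5 and 10.4 in shGLO1#1 and 13.9, 14.9 and 15.1 in shGLO1#2 (-1.61 ± 0.12, adjusted p = 2.09e-07). Among 8 keratins 3 rose and 2 fell (37.5% and 25%, against 22.6% and 23.1% of all genes). KRT7 was lower (-0.61 ± 0.15, adjusted p = 0.00384) and KRT81 higher (1.26 ± 0.29, adjusted p = 0.0027).

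Wnt pathway genes rose in 11 of 24 cases and fell in 2 (45.8% and 8.33%, against 22.6% and 23.1% of all genes). AXIN2, the common feedback target, was at 4.37, 4.43 and 4.65 CPM in shNT, 11.7, 11.5 and 11.7 in shGLO1#1 and 7.92, 6.09 and 6.76 in shGLO1#2 (1.37 ± 0.13, adjusted p = 1.94e-06). Its shGLO1#1 libraries were close together and above all others. The receptor FZD8 was at 1.34, 1.04 and 1.22 CPM in shNT, 3.33, 3.43 and 2.85 in shGLO1#1 and 0.975, 1.45 and 1.24 in shGLO1#2, highest in shGLO1#1 (1.41 ± 0.21, adjusted p = 0.000131), and LEF1 rose in both clones (1.30 and 1.39). In the Notch list 4 of 14 rose and 2 fell (28.6% and 14.3%, against 22.6% and 23.1% of all genes). The ligand JAG1 was at 272, 266 and 298 CPM in shNT, 502, 567 and 543 in shGLO1#1 and 215, 195 and 217 in shGLO1#2, higher than shNT in shGLO1#1 and lower in shGLO1#2 (0.95 ± 0.06, adjusted p = 1.24e-07 and -0.42 ± 0.06, adjusted p = 0.000176). The Fringe glycosyltransferase LFNG and the target HES1 changed by 1.69 ± 0.16 (adjusted p = 1.81e-06) and 0.79 ± 0.17 (adjusted p = 0.00209), and MFNG rose by 1.91, a call lost without shNT replicate 3.

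Long noncoding RNAs known from carcinomas fell in 8 of 13 cases and rose in 1 (61.5% and 7.69%, against 23.1% and 22.6% of all genes). UCA1 was at 52.0, 65.5 and 74.8 CPM in shNT, 3.33, 2.67 and 2.85 in shGLO1#1 and 55.0, 40.1 and 57.3 in shGLO1#2. The shGLO1#1 libraries were below 3.4 CPM and all others above 40, a log2 fold change of -4.45 ± 0.19 (adjusted p = 4.09e-09), with -4.11 ± 0.19 (adjusted p = 7.41e-09) between the clones. CCAT1 was at 6.58, 6.33 and 6.09 CPM in shNT, 0.185, 0.218 and 0.342 in shGLO1#1 and 5.66, 4.08 and 5.27 in shGLO1#2 (-4.62 ± 0.26, adjusted p = 3.31e-08). GAS5, which hosts small nucleolar RNAs, changed less, by -0.59 ± 0.05 (adjusted p = 6.7e-07), and did not pass in shGLO1#2 (0.01 ± 0.05, adjusted p = 0.88).

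Some clustered families changed as a block in shGLO1#1. All 13 beta protocadherins tested, of 16 listed, rose, with a median of 2.54. All 9 pregnancy-specific glycoproteins tested, of 10 listed, fell, with a median of -4.13. In shGLO1#2 these medians were 2.01 and -4.35. Of all genes 22.6% rose and 23.1% fell. A member could pass the count filter through the line where it was high, so these counts are descriptions. Under the alternatives 10 to 13 protocadherins rose and 5 to 9 glycoproteins fell. PCDHB2 was at 0.336, 0.848 and 0.554 CPM in shNT, 7.16, 7.67 and 7.19 in shGLO1#1 and 9.08, 7.54 and 6.45 in shGLO1#2 and PSG7 at 19.6, 10.04 and 14.2 CPM in shNT, 0.185, 0.326 and 0.228 in shGLO1#1 and 0.244, 0.168 and 0.372 in shGLO1#2, each overlapping between the clones and apart from shNT. PSG2 and PSG6, with 2 counts each over the shGLO1#1 libraries, were lower by ratios of 44.8 (exact 95% interval 12 to 376) and 45.3 (12.2 to 381). The genes of each family are similar in sequence, so the split of reads among them is uncertain. Of 8 cancer-testis genes tested, of 28 listed, 4 rose and 1 fell (50% and 12.5%, against 22.6% and 23.1% of all genes). Here too a member could pass the count filter through the line where it was high, so the count is a description. CTAG2 had 43 counts in shGLO1#1 and 0 in both other lines, at least 13.3-fold higher than shNT and 13.9-fold higher than shGLO1#2, while MAGEB1, with 108 counts in shNT and 0 in shGLO1#1, dropped at least 38.9-fold. Among 11 HOX genes tested, of 39 listed, 4 rose and 1 fell (36.4% and 9.09%, against 22.6% and 23.1% of all genes). The HOX count is a description for the same reason. Only 1 rose with a mean of at least 1 CPM required and 2 with only the groups compared in the model. With that minimum 0 fell, and 0 did when any of 5 libraries was left out (shGLO1#1 replicates 2 and 3, shNT replicates 1 and 2, shGLO1#2 replicate 2). Of these genes HOXA13 was at 0.202, 0.196 and 0.166 CPM in shNT, 1.11, 1.36 and 0.798 in shGLO1#1 and 0.183, 0.335 and 0.0621 in shGLO1#2 (2.50 ± 0.45, adjusted p = 0.000455). HOXB6 had 18 counts against 1 in shNT, a ratio of 16.7 (2.63 to 695), and the call of HOXC5 was lost under 6 alternatives.

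**Figure D4:**
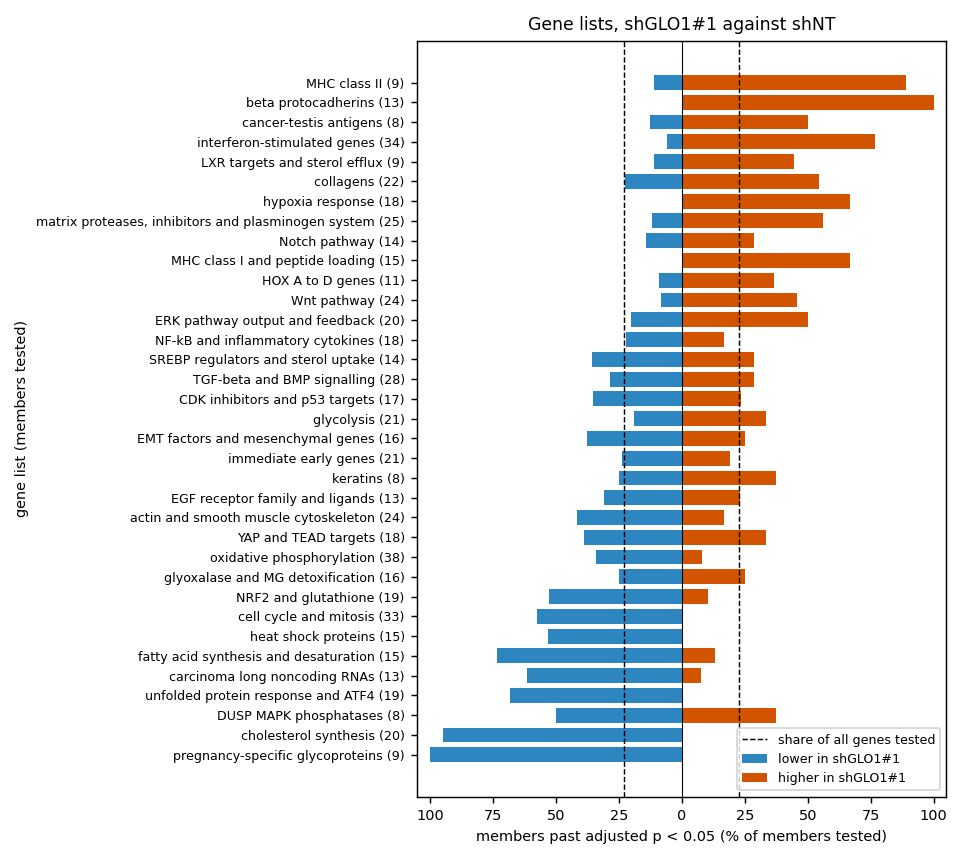
Share of tested members of each of the 35 gene lists past an adjusted p under 0.05 in shGLO1#1 against shNT, higher to the right (orange) and lower to the left (blue), as a percent of the members tested, with lists ordered by median log2 fold change. The dashed lines mark the shares of all genes, 22.6% higher and 23.1% lower. Cholesterol synthesis reaches 95% lower, and beta protocadherins 100% higher.

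A gene was counted as particular to shGLO1#1 where it was called against shNT, not called in shGLO1#2 against shNT, and called in the same direction between the clones. These were 198 higher and 112 lower genes, 310 in all. The comparisons share libraries, so the count is a description. Of these, 88 higher and 60 lower genes had at least 5 CPM in the higher group and no overlap of shGLO1#1 with either other line, and those with the largest changes in each direction are described here.

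Among the higher ones, PMEPA1, a TGF-beta-induced inhibitor of that pathway, was at 18.7, 23.2 and 19.7 CPM in shNT, 97.1, 134 and 98.3 in shGLO1#1 and 11.3, 18.8 and 12.8 in shGLO1#2. The shGLO1#1 libraries all lay above 97 CPM, and shGLO1#2 overlapped shNT (2.42 ± 0.16, adjusted p = 1.13e-07 and -0.51 ± 0.18, adjusted p = 0.0385). CST1, the secreted protease inhibitor cystatin SN, was at 5.04, 11.2 and 14.9 CPM in shNT, 52.3, 55.3 and 59.9 in shGLO1#1 and 20.4, 11.8 and 19.4 in shGLO1#2 (2.40 ± 0.26, adjusted p = 5.77e-06). AIM2, a sensor of cytosolic DNA, was at 1.01, 2.09 and 1.72 CPM in shNT, 8.39, 8.98 and 7.58 in shGLO1#1 and 3.17, 3.18 and 3.10 in shGLO1#2, with shGLO1#2 between the others (2.36 ± 0.20, adjusted p = 7.26e-07). VASH1, vasohibin, which removes the terminal tyrosine of tubulin, was at 2.08, 2.41 and 2.104 CPM in shNT, 13.6, 10.6 and 10.3 in shGLO1#1 and 3.35, 3.35 and 2.42 in shGLO1#2 (2.38 ± 0.18, adjusted p = 2.57e-07). The glycosyltransferase gene B3GNT7 had the largest change of the higher genes, at 1.21, 0.848 and 0.498 CPM in shNT, 7.71, 7.94 and 6.79 in shGLO1#1 and 0.548, 0.614 and 0.434 in shGLO1#2 (3.16 ± 0.24, adjusted p = 2.57e-07). FAM43A changed by 2.50 ± 0.24 (adjusted p = 1.97e-06). Further ones were BZRAP1 (3.11), MYH16 (2.99), VWA5A (2.98), PLEKHG4B (2.85) and the noncoding RNA LINC01605 (2.74), given as log2 fold changes.

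Among the lower ones, besides UCA1, CCAT1 and STC2, SPNS2, which exports sphingosine-1-phosphate, was at 29.3, 37.5 and 34.4 CPM in shNT, 2.22, 4.30 and 2.91 in shGLO1#1 and 18.9, 25.6 and 21.8 in shGLO1#2. The shGLO1#1 libraries held at most 4.30 CPM (-3.41 ± 0.18, adjusted p = 2.67e-08). DMD, dystrophin, was at 60.0, 44.0 and 53.1 CPM in shNT, 11.2, 5.22 and 7.01 in shGLO1#1 and 43.2, 37.0 and 42.5 in shGLO1#2, with shNT and shGLO1#2 apart from shGLO1#1 (-2.76 ± 0.19, adjusted p = 1.5e-07). RELN, the extracellular signalling protein reelin, was at 21.4, 27.7 and 27.2 CPM in shNT, 3.52, 3.92 and 4.79 in shGLO1#1 and 17.0, 21.7 and 18.4 in shGLO1#2 (-2.64 ± 0.15, adjusted p = 3.46e-08). PRKCZ, an atypical protein kinase C of cell polarity, was at 34.2, 28.8 and 29.1 CPM in shNT, 5.06, 6.47 and 6.10 in shGLO1#1 and 18.8, 19.3 and 21.1 in shGLO1#2 (-2.38 ± 0.12, adjusted p = 1.17e-08), and MATN2, the matrix protein matrilin 2, at 61.6, 55.1 and 54.3 CPM in shNT, 10.4, 13.1 and 11.9 in shGLO1#1 and 30.4, 37.5 and 32.7 in shGLO1#2 (-2.27 ± 0.10, adjusted p = 7.09e-09). Several of these genes also passed the adjusted p in shGLO1#2 in the same direction, short of 2-fold. Among the lower ones these were KBTBD11 (-0.88), MATN2 (-0.76), PRKCZ (-0.64), SPNS2 (-0.61) and RELN (-0.42), and among the higher ones FAM43A (0.99), MYH16 (0.98), AIM2 (0.96), LINC01605 (0.90) and VWA5A (0.88), as log2 fold changes of shGLO1#2. The rest were ARHGEF16 (-4.27), a guanine nucleotide exchange factor, KBTBD11 (-3.49), NANOS1 (-2.45), an RNA-binding translational repressor, and the guidance cue SEMA3E (-2.42).

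**Figure D5:**
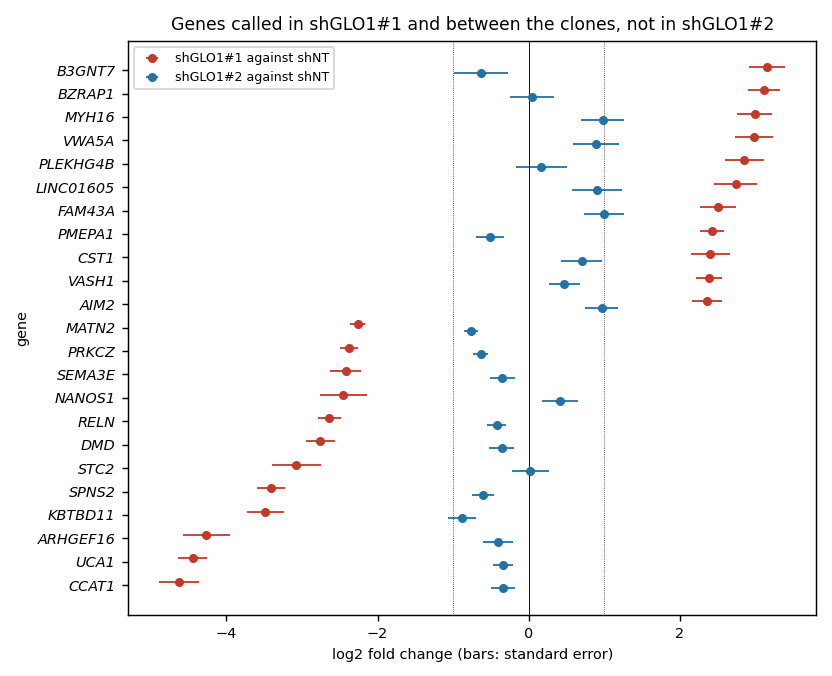
Log2 fold changes against shNT, with their standard errors, of the genes described as particular to shGLO1#1, in shGLO1#1 (red) and shGLO1#2 (blue), with dotted lines at 2-fold. The red points lie beyond 2 on the log2 scale on either side and the blue points within 1 of 0. The genes were chosen for large changes in shGLO1#1 and no call in shGLO1#2, so this separation follows from the choice.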

How the data were processed

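RNA of 9 libraries was analysed, 3 each of shNT, shGLO1#1 and shGLO1#2. Per the study's methods, total RNA went into libraries of a TruSeq kit that does not mark the strand. The submitters' processing notes list bcl2fastq 2.17, the aligner TopHat2 2.1.1, the counter HTSeq and the build hg19. No source used here gives the version, annotation or strand setting of HTSeq, so overlapping genes on opposite strands could not be separated. The deposited values are raw counts per gene made by the authors, and reads on no gene were dropped from library sizes. Libraries of 1 line differed by more than sampling noise (chi-square per degree of freedom 3.10 to 8.60).

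Counts were analysed with edgeR 4.0.16 in R 4.3.3. The filter was filterByExpr, with a minimum count of 10 and a minimum total of 15. Library sizes were scaled by TMM, and a quasi-likelihood model of all 9 libraries gave the contrasts, with Benjamini-Hochberg adjusted p-values. The SE is the log2 fold change over the square root of F. DESeq2 1.42.0 was an alternative, beside other scaling, filters, samples, a replicate block and leaving out each library.

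The comparison, the 35 lists and the motifs were chosen with earlier results of these data known. Genes named were GLO1, DUSP1, UCA1, the cholesterol list, up to 4 members of each other list with the largest changes past the adjusted p, and the 12 genes in each direction particular to shGLO1#1 that changed most. These 12 had a mean of at least 5 CPM in the higher group and no overlap between libraries. Of the 224 named genes 48 were chosen after their values were seen. Some items are not reported here. A fold against a group at 0 was computed against 3 counts over that group and is a lower bound, and for 1 to 3 counts a ratio with an exact (Clopper-Pearson) 95% interval is given. That choice followed a look at the counts, and both cover counting error only. Promoters come from RefSeq (GRCh38.p14), at the first start site of a gene.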

Additional observations from a re-analysis of the deposited data

Results flagged for a closer look

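The results of the 2 GLO1-depleted clones were compared with each other in the same model, and 971 genes were called between them (457 lower and 514 higher in shGLO1#1). Values in this part are log2 differences of shGLO1#1 minus shGLO1#2 that passed an adjusted p under 0.05 and 2-fold, for genes chosen by the rule for named genes or named in the text. GLO1 and the genes named as particular to shGLO1#1 are not repeated here, since the rule for the latter used this test. Some of the genes below meet the same definition.

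In the cholesterol synthesis list 18 of 20 genes were lower in shGLO1#1, and 7 of them by more than 2-fold, with ACAT2 at -1.14, HMGCS1 at -1.30, MVD at -1.48, FDFT1 at -1.099, SQLE at -1.198, MSMO1 at -1.12 and DHCR7 at -1.02. Among other lipid genes, FADS3 differed by -1.07, ABCA1 by 2.02 and SMPDL3A by 1.14.

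DUSP1 differed by -1.43 and EPHA4 by 1.03. The named stress and detoxification genes that passed, GLO1 aside, were lower in shGLO1#1, with AKR1C3 at -1.15, OSGIN1 at -1.17, PCK2 at -1.12, TRIB3 at -1.19 and GDF15 at -1.28. The list of glyoxalase and MG detoxification genes had a median difference of 0.04. Of its 16 members tested 2 were higher and 6 lower at the adjusted p alone, where 23.7% and 22.8% of all genes were. AKR1C3 was higher in shGLO1#1 than in shNT (1.202).

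Antiviral genes differed in both directions, with OAS1 at 1.25, OAS2 at 1.29, IFI44L at 1.11 and MX2 at -1.32. Antigen presentation genes were higher in shGLO1#1, with HLA-B at 1.43, PSMB9 at 1.15, HLA-DRA at 1.66 and, from few counts, HLA-DRB1 at 1.77 and HLA-DPB1 at 1.19. The cytokine genes IL24 and IL11 were at -2.91 and -2.03.

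Of matrix and cytoskeletal genes, COL6A2 was at -1.22, COL6A3 at 2.35, MMP15 at -1.18, ADAM19 at 1.07, ACTA2 at -1.03 and CAV2 at 1.08. TNS1, the focal adhesion protein tensin 1, was near 0 in shGLO1#1 and expressed in shGLO1#2, with a fitted difference of -5.56 that rests on 8 counts in shGLO1#1. Among identity genes CDH1 was at 1.79, KRT86 at -1.40 and KRT81 at -3.97. Of signalling genes, SFRP1 was at 2.37, FZD8 at 1.38, MFNG at 1.36, LFNG at 1.205 and JAG1 at 1.36.

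Genes of low level that differed were LINC-ROR at -3.72, HOXA13 at 2.42, PCDHB6 at 1.13, MAGEC2 at -1.97 and SSX1 at -1.88. CTAG2 had 0 counts in shGLO1#2, so that its fitted difference of 6.80 depends on the prior count and is no bound. Markers of other cell types also differed, with the leukocyte gene PTPRC at -1.08, the fibroblast gene LUM at 1.67, the endothelial gene FLT1 at -1.68 and the luminal gene TFF1 at 1.28. At the adjusted p alone the 3 fibroblast markers tested split, with 1 higher and 1 lower in shGLO1#1. PDGFRB had 63 counts in shGLO1#1 and 260 in shGLO1#2. LUM had 230 counts in shNT, 47 in shGLO1#1 and 14 in shGLO1#2, fewer than shNT in both clones.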

How the results depend on the processing

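With 3 libraries of 1 line in each group, the tests cover the spread between libraries only, and genes of a few counts rest on counting error. Each result was recomputed under 15 alternatives, 9 of which leave out a library. The number of genes called in shGLO1#1 against shNT was 1158 to 1263 without a library and 941 to 1427 under the others, from a mean of at least 1 CPM to no filter on low counts. At the adjusted p alone 5185 to 6587 and 5903 to 7393 genes passed, between the clones 938 to 1026 and 745 to 1205 were called, and 285 to 348 and 236 to 356 genes were particular to shGLO1#1. All 19 cholesterol synthesis genes were lower than in shNT under each alternative, and 17 or 18 were lower than in shGLO1#2. With a replicate block 1217 genes were called (836 higher and 381 lower), 7393 passed the adjusted p alone, 989 were called between the clones, 318 were particular to shGLO1#1, 19 and 18 cholesterol genes were lower and GLO1 changed by -2.28. Deviations of libraries of the same number correlated at -0.034, 0.056 and 0.25 for shNT and shGLO1#1, 0.21, 0.185 and 0.309 for shNT and shGLO1#2, and 0.197, 0.069 and 0.341 between the clones, and those of different numbers at -0.258 to 0.134. Since 3 of the same-number pairs were not over 0.1, the numbers were not taken to pair the libraries, which leaves them as a hint from the data. DESeq2 called 1232 genes.

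Of 3331 values of named genes under the alternatives 3296 kept their direction and side of the threshold. The reversals were in 5 genes that passed no test. Without a library PMVK ran from -0.14 to 0.013, INSIG1 from -0.087 to 0.11 (-0.024 without shGLO1#1 replicate 3), ISG15 from -0.049 to 0.12 (-0.0065 without shGLO1#1 replicate 2), TAP1 from -0.0093 to 0.14 (-0.0077 without shNT replicate 3) and TOP2A from -0.013 to 0.14. SCD passed with a replicate block (adjusted p = 0.033). The adjusted p was lost by HSPH1 without shNT replicate 2 (0.0610) or shGLO1#1 replicate 3 (0.0545), by HSPA5 without the same libraries (0.0810 and 0.0714), by SREBF1 without shGLO1#1 replicate 3 (0.0823), by MFNG without shNT replicate 3 (0.0551), by DUSP7 without shNT replicate 3 (0.0900) or shGLO1#1 replicate 2 (0.133), by KRT15 with DESeq2 (0.0627), without shNT replicate 2 (0.0904) or shGLO1#1 replicate 1 (0.102), by HOXC5 with DESeq2 (0.0746), without any 1 shNT library or shGLO1#1 replicate 1 or 2 (0.0539 to 0.156) and by DUSP6 with RLE scaling (0.0504), without shNT replicate 2 or 3 or any 1 shGLO1#1 library (0.0614 to 0.204). A 2-fold call near the limit was lost without shNT replicate 1 by AKR1C3, AREG and OAS3, without it or shGLO1#1 replicate 1 by CYP27A1 and SSX1, without it or shGLO1#1 replicate 2 by EGLN3, without it or shGLO1#1 replicate 3 by ICAM1, without shNT replicate 3 or shGLO1#1 replicate 2 by MMP14 and TP53I3, without shGLO1#1 replicate 3 by BMP2 and without shGLO1#1 replicate 2 by HOXC6. Of 1020 counts of list members 24 moved by over 1.5 times. ERK output genes higher were 10, and 6 without shGLO1#1 replicate 1, and those lower were 4, and 2 without that library, shGLO1#1 replicate 2 or shNT replicate 1. DUSP genes higher were 3, and 1 without shNT replicate 3 or shGLO1#1 replicate 2. With a mean of at least 1 CPM 5 of 9 pregnancy-specific glycoproteins remained lower, since fewer genes were tested. The cause of the other changes was not tested.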
